A study of Mus musculus with 36 samples.

Results

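Roxadustat inhibits the prolyl hydroxylases that mark the alpha subunits of hypoxia-inducible factor (HIF) for degradation. The comparison described here is between the livers of mice given roxadustat and the livers of mice given phosphate-buffered saline (PBS), measured by RNA sequencing. It rests on 12 of the 36 libraries of a study of HIF stabilization against retinopathy of prematurity. They are the 6 roxadustat and 6 PBS libraries of 1 of its 2 expression tables, chosen by table and treatment label alone. All 12 came from C57BL/6 mice that carried no other stated allele or agent, and the labels give no dose, time, route, age or sex. Another treatment, dimethyloxalylglycine (DMOG), also a hydroxylase inhibitor, has 6 libraries in the same table. Whether the replicates were separate animals is not stated, so the p-values speak only of variation among these libraries, which may be technical in part.

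The tissue label of these libraries is retina, and their RNA is that of liver. Apoa1, which encodes the main protein of high-density lipoprotein, lay between 7790.0 and 12786 FPKM (fragments per kilobase of transcript, scaled to the mapped fragments of the library, so that levels of different genes compare per length). Afp, the alpha-fetoprotein gene of the growing liver, lay between 5138 and 9116 FPKM. The summed level of 10 photoreceptor genes was 2.52 to 3.80 FPKM, and Sag, the rod arrestin gene, was at most 0.473 FPKM. Every library listed Alb and Mup1, both strongly expressed by grown hepatocytes, at 0, which in a table without read counts can be a failed estimate and is not read here as lack of expression. Blood cell genes were present, with a summed level of 2119 to 4363 FPKM for 16 erythroid genes. Limma called 0 of the 15 tested (0 at an unadjusted p under 0.05, against 3024 of all 12649 genes tested). Library totals lay between 448552 and 504222 FPKM, and 16029 to 16346 genes were detected above 0. Roxadustat library 5 stood apart from the other roxadustat libraries on the first 2 principal components, which held 33.5% and 14.8% of the variance, and results that rest on it are given without it. Xist and Y-linked genes marked 3 of 6 PBS libraries and 1 of 6 roxadustat libraries as female, so treatment and sex overlapped in part. Both groups held libraries of both sexes, so neither group came from 1 animal alone.

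In oxygenated cells, the hydroxylases EGLN1, EGLN2 and EGLN3 modify HIF alpha subunits, the VHL protein binds the modified subunit, and the proteasome destroys it. When the hydroxylases are blocked, HIF alpha accumulates, pairs with ARNT and binds a short core sequence in DNA near genes of glycolysis, oxygen supply and its own feedback. In liver, HIF is known for control of erythropoietin, of iron uptake through hepcidin and of lipid and sugar metabolism.

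The promoters of genes that rose with roxadustat are shown because the core that HIF binds can be read in them. The core was searched as ACGTG or GCGTG on both strands, in RefSeq windows of mouse build GRCm38.p6 from 250 bases before to 50 after the start of the gene. Each match is in capitals, also where it reads as CACGT or CACGC on the strand printed, and overlapping matches run together. Bnip3 (a mitophagy receptor), Ankrd37 (an ankyrin repeat protein), Pfkl (liver phosphofructokinase) and Egln3 rose, and Sc4mol (sterol oxidase of cholesterol synthesis, Msmo1 in RefSeq) fell. All 5 genes lie on the minus strand, and the windows are written 5′ to 3′ along the gene.
Bnip3, chr7:138909457-138909756: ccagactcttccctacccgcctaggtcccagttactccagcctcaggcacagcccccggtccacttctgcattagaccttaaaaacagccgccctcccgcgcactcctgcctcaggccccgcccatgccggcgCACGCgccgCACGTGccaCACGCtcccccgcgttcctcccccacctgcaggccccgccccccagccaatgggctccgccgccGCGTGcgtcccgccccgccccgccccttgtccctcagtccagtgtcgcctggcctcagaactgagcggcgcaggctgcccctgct
Ankrd37, chr8:45999801-46000100: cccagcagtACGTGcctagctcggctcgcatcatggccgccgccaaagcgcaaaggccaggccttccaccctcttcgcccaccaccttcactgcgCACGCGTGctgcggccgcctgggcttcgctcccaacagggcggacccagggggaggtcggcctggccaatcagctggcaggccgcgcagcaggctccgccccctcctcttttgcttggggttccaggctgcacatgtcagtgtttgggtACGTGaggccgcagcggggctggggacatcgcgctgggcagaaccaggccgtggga
Pfkl, chr10:78009758-78010057: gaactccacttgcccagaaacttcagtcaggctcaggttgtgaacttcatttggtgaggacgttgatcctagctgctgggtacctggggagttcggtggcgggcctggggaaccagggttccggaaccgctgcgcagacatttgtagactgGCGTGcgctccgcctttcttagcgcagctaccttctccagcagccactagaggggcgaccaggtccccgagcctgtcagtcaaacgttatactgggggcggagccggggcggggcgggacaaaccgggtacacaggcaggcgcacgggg
Egln3, chr12:54203825-54204124: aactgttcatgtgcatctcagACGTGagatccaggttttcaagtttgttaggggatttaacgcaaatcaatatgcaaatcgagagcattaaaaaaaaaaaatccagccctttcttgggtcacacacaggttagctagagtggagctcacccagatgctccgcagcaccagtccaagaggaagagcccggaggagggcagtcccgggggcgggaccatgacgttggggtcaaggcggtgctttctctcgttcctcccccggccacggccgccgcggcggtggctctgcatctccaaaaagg
Sc4mol, chr8:64733529-64733828: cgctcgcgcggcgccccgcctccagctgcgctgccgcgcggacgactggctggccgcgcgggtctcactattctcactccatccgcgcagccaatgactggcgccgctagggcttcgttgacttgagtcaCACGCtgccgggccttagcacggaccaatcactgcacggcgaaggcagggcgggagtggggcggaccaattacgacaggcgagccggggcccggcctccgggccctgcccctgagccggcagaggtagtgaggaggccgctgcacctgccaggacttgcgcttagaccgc

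Bnip3 had 5 matches in its window, Ankrd37 had 4, and Pfkl, Egln3 and Sc4mol had 1 each. The core is short and common. It was present in the promoters of 65.9% of the tested genes that matched the RefSeq table (10053 of 12649), of 72.9% of those called higher (436 of 554 matched) and of 64.4% of those called lower (523 of 674 matched). Among HIF feedback and stress targets it was present in 27 of the 31 matched genes (87.1%), in glycolysis in 17 of 20, in cholesterol synthesis in 10 of 15 (66.7%), and in oxidative phosphorylation, where no gene was called, in 17 of 22 (77.3%). It was present in 46.7% of all promoters of the RefSeq table. A match describes the letters and not a binding site.

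Of 12649 genes tested, 1228 were called at an adjusted p under 0.05, 554 higher and 674 lower with roxadustat. The test was limma on log2(FPKM + 0.5), on which changes of genes with levels near the added 0.5 appear too small, and all adjusted p-values are Benjamini-Hochberg values over all genes tested. The background shares are thus 9.71% called, 4.38% higher and 5.33% lower, and groups did not overlap for 691 genes (5.46%). An unadjusted p under 0.05 was found for 3024 of the 12649 genes. With every library scaled to the same total, 431 were higher and 1076 lower. Leaving out 1 library gave from 841 calls without PBS library 6 to 1664 without roxadustat library 5. Large rises outnumbered large falls, since 76 genes rose by more than 1 on the log2 scale and 15 fell by more than 1. With sex as a term, 7.91% of the genes tested were called, 3.83% higher and 4.08% lower. In that fit, 918 of the 1228 calls remained, and all 1228 kept their direction. In the 8 libraries with male signal, 271 remained called, and each of the 1224 with a value kept its direction.

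**Figure D1:**
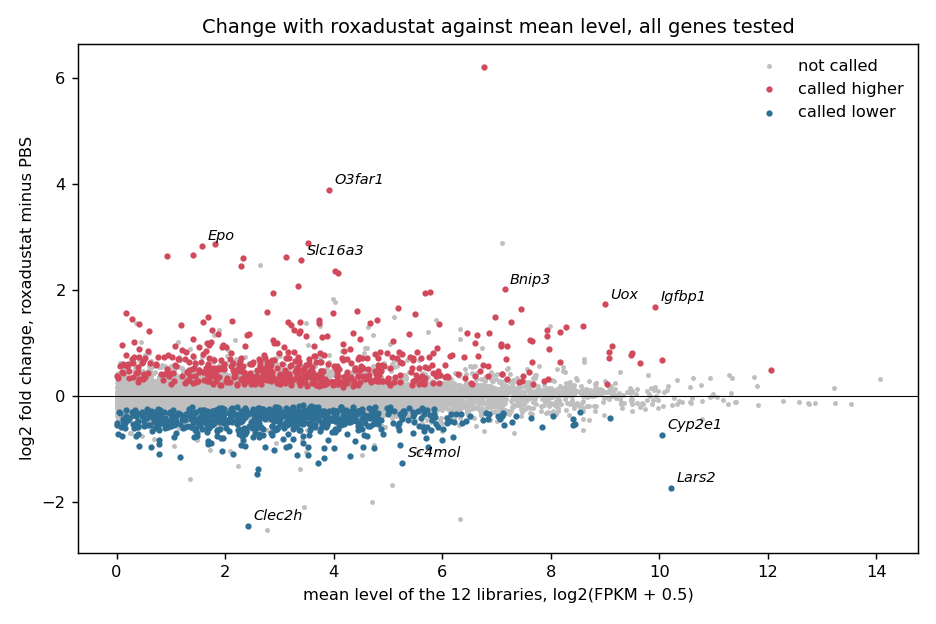
Change with roxadustat against mean level for 12649 genes. The horizontal axis is the mean of the 12 libraries as log2(FPKM + 0.5), the vertical axis is the log2 fold change of roxadustat minus PBS, and colours mark the 554 genes called higher and the 674 called lower. Among called genes, 15 lie above 2 and 1 lies below -2, and Lars2 stands out as the fall of an abundant transcript.

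Several of the largest rises were in genes that were nearly silent with PBS. O3far1, which encodes a receptor for long-chain fatty acids (FFAR4), had 0.769, 1.33 and 2.13 FPKM with PBS (lowest, median and highest of 6) and 14.2, 30.2 and 32.2 FPKM with roxadustat. The log2 fold change of O3far1 was 3.89 ± 0.21 (SE, adjusted p = 6.71e-08), and the groups lay far apart. Fgf23, the gene of a phosphate-lowering hormone made mainly in bone, was listed at 0 in 3 PBS libraries and reached 0.0438 FPKM in the others, against 1.72 to 3.79 FPKM with roxadustat (2.64 ± 0.15, adjusted p = 9.50e-08). Adm2, the gene of a vasodilator peptide, had 0.0973, 0.193 and 0.371 FPKM with PBS and 2.99, 4.30 and 4.6 FPKM with roxadustat (2.67 ± 0.12). Cyp17a1, a steroid hydroxylase, had 0.0638, 0.266 and 0.539 FPKM with PBS and 3.34, 4.51 and 11.7 FPKM with roxadustat (2.88 ± 0.23). Each of these 4 genes was higher in every roxadustat library than in any PBS library.

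Crybb3, a lens crystallin gene, had 0.60, 0.779 and 1.34 FPKM with PBS and 4.23, 7.43 and 15.3 FPKM with roxadustat (2.61 ± 0.24, adjusted p = 9.81e-06). It was the 1 called gene of 15 lens genes, of which 3 passed the filter, and the alpha crystallin Cryaa was listed at 0 in all 12 libraries. Of 9 genes of the adrenal cortex, a site of steroid synthesis, 2 passed the filter and 1 of these, Hsd3b1, was lower (-0.97 ± 0.15). Star was at most 0.492 FPKM and Cyp11b1 was listed at 0, and the part of such cells in the rise of Cyp17a1 was not tested. Efna1, an ephrin ligand of vessels, rose from 16.4, 21.4 and 30.9 FPKM to 64.1, 82.3 and 119 FPKM (1.97 ± 0.17, adjusted p = 3.98e-06). Cdkn1a, the inhibitor p21 of the cell cycle, rose from 2.63, 3.36 and 4.55 FPKM to 13.8, 15.9 and 18.2 FPKM (2.07 ± 0.10, adjusted p = 4.82e-08), while 32 of 33 cell cycle genes were not called.

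**Figure D2:**
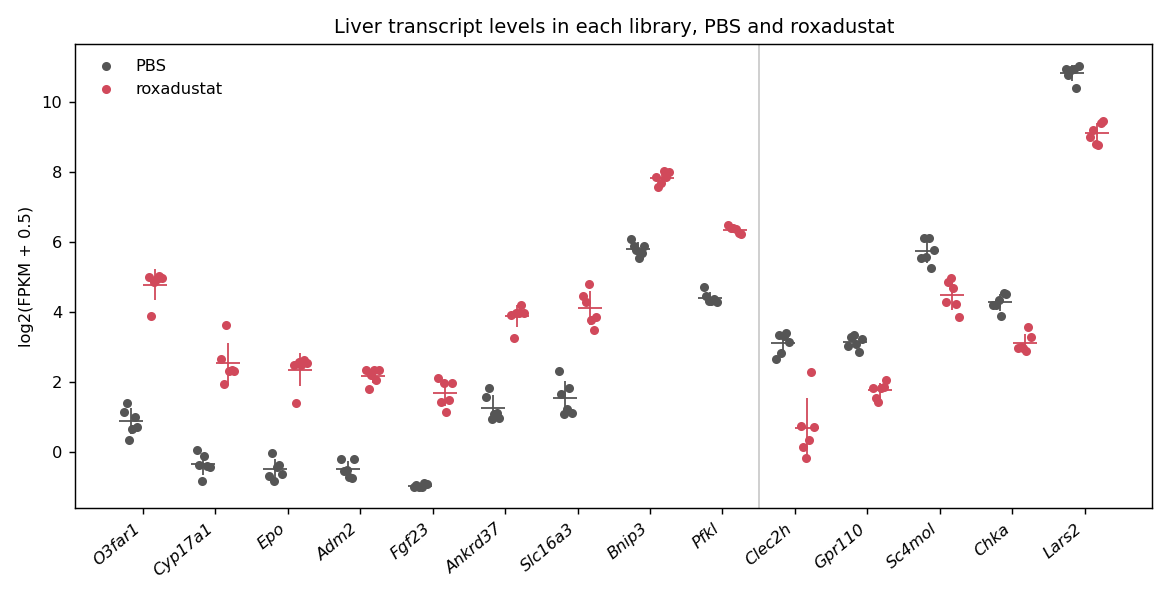
Levels of 14 leading genes in each of the 12 libraries, as log2(FPKM + 0.5). Points are libraries, horizontal bars are group means and vertical bars are SD (n = 6). The 9 genes left of the line rose and the 5 genes right of it fell, and for each gene the groups do not overlap.

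Abundant transcripts rose as well. Uox, the urate oxidase gene, went from 193, 227 and 317 FPKM with PBS to 649, 775 and 937 FPKM with roxadustat, 3.30 times the PBS mean (log2 fold change 1.73 ± 0.13, adjusted p = 9.95e-07). Igfbp1, an insulin-repressed binding protein for growth factors, went from 237, 505 and 619.7 FPKM to 1040.1, 1365 and 2346 FPKM (1.69 ± 0.24, adjusted p = 0.000528). Bsg, the chaperone of lactate transporters at the membrane, went from a median of 497 to 855 FPKM (0.79 ± 0.11). Apoc3, an inhibitor of lipoprotein lipase, went from 141, 221 and 274 FPKM to 338, 577 and 713 FPKM (1.33 ± 0.19, adjusted p = 0.000561). Of 21 apolipoproteins and plasma carriers on another list, 1 was called, Apof (0.24 ± 0.07, adjusted p = 0.0493, and up to 0.104 with 1 library left out). Fgl1, a liver-made fibrinogen-like protein, rose by 0.62 ± 0.13 (adjusted p = 0.00887). Hpx, the heme-binding plasma protein, had the largest rise in FPKM among the called genes ranked for naming. Its median went from 3448 to 4727 FPKM (0.50 ± 0.14, adjusted p = 0.0358). The groups overlapped for Hpx, and its adjusted p was up to 0.0789 with 1 library left out.

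The HIF system itself changed in both directions. Of 8 tested genes of HIF subunits and oxygen-sensing hydroxylases, 4 rose and 2 fell. Egln1, the main HIF hydroxylase, had 7.38, 8.18 and 9.44 FPKM with PBS and 17, 17.9 and 20.7 FPKM with roxadustat (1.12 ± 0.07, adjusted p = 2.76e-07). Egln3 had 5.19, 7.05 and 8.29 FPKM and then 17, 18.6 and 20.4 FPKM (1.38 ± 0.10, adjusted p = 1.23e-06). Vhl, which encodes the subunit that binds hydroxylated HIF alpha, went from a median of 8.10 to 10.8 FPKM (0.36 ± 0.06, adjusted p = 0.00279). In these 3 genes the groups did not overlap.

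The HIF alpha genes fell. Hif1a had 12.5, 14.9 and 16.5 FPKM with PBS and 10.8, 11.6 and 13.4 FPKM with roxadustat (-0.32 ± 0.07, adjusted p = 0.0155). Epas1, the HIF-2 alpha gene, had 20.4, 22.8 and 30.3 FPKM and then 14.7, 17.1 and 21.5 FPKM (-0.44 ± 0.11, adjusted p = 0.0227). The groups overlapped for both, and the call of Epas1 was lost with any of 4 libraries left out (adjusted p up to 0.055). Egln2 (-0.18 ± 0.07, adjusted p = 0.161) and Hif1an, the asparagine hydroxylase (-0.01 ± 0.06, adjusted p = 0.959), were not called. Arnt, the shared partner, was called higher by 0.22 ± 0.06 with an adjusted p of 0.0449, which was up to 0.103 with 1 library left out.

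HIF feedback and stress targets rose. Of 39 tested, 29 were called higher and 1 lower, and the list's median log2 fold change was 0.77 against -0.001 over all genes tested. Those called higher had log2 fold changes of 0.29 to 6.21, and the member at 6.21 is not reported here. Pdk1, the kinase that closes off pyruvate oxidation, had 9.43, 10.2 and 11.2 FPKM with PBS and 26.0, 32.8 and 35.6 FPKM with roxadustat (1.60 ± 0.08, adjusted p = 4.14e-08). Bnip3 had 45.5, 56.0 and 66.8 FPKM and then 188, 230.1 and 259 FPKM (2.02 ± 0.10, adjusted p = 4.82e-08). Ankrd37 went from a median of 1.65 to 15.1 FPKM (2.62 ± 0.17, adjusted p = 4.14e-07). The roxadustat values of these 3 genes were above all PBS values, as they were for 25 of the 39.

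Further members of the list have roles in growth control, glucose uptake and mitochondria. Ddit4, a brake on mTOR signalling, rose by 1.59 ± 0.09, and Slc2a1, the glucose transporter GLUT1, by 1.44 ± 0.12. Ero1l, the oxidase of protein folding, rose by 1.38 ± 0.09 and Fam162a, a mitochondrial protein, by 1.36 ± 0.09. Higd1a, a modulator of respiratory complexes, rose by 1.19 ± 0.12, and the histone demethylase genes Kdm3a and Kdm4b rose by 0.83 ± 0.08 and 0.69 ± 0.07. The exception was Nrn1, neuritin, with -0.33 ± 0.09 (adjusted p = 0.0319), whose call was lost with any of 7 libraries left out (adjusted p up to 0.0726). The list's mean was 0.85 to 1.05 above the PBS mean in all 6 roxadustat libraries, library 5 included.

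Genes of other enzymes that use oxygen and 2-oxoglutarate, the class to which EGLN proteins belong, rose in part. Of 23 tested genes of collagen hydroxylases and demethylases, 8 were higher and 1 was lower, with a median of 0.13. P4ha1, a collagen prolyl hydroxylase, had 4.59, 5.98 and 6.70 FPKM with PBS and 13.2, 13.5 and 14.9 FPKM with roxadustat (1.19 ± 0.08, adjusted p = 7.87e-07). P4ha2 rose by 1.35 ± 0.12 and Plod2, a lysyl hydroxylase, by 0.75 ± 0.08. Alkbh5, the demethylase of N6-methyladenosine in RNA, went from 18.2, 19.3 and 20.3 FPKM to 31.1, 34.0 and 36.3 FPKM (0.80 ± 0.06, adjusted p = 6.52e-07). Jmjd6, a lysyl hydroxylase of splicing factors, rose by 0.61 ± 0.06 and the histone demethylase gene Kdm2a by 0.36 ± 0.05.

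**Figure D3:**
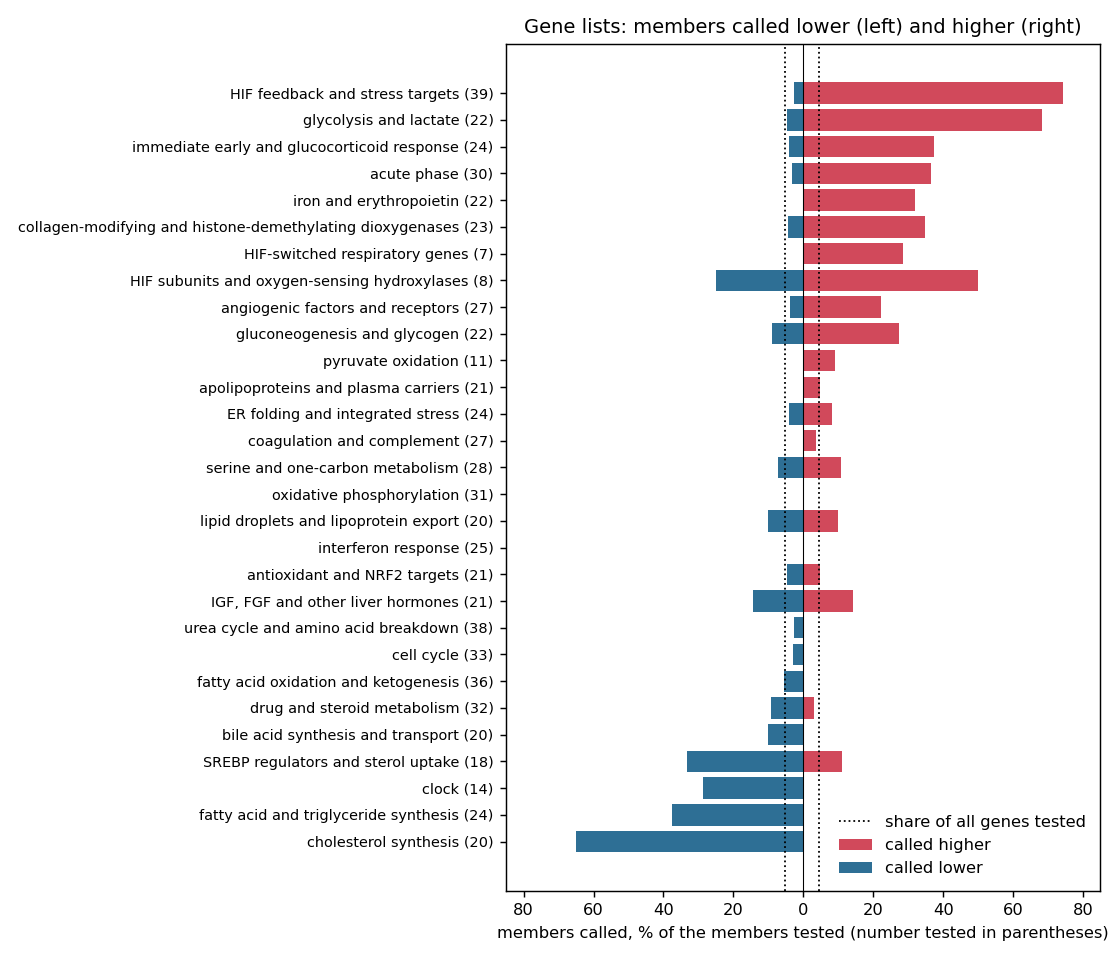
Share of the tested members of 29 gene lists that were called lower (left) and higher (right) with roxadustat. The number tested stands in parentheses and dotted lines mark the shares of all genes tested, 5.33% lower and 4.38% higher. HIF targets and glycolysis lie farthest to the right and cholesterol synthesis farthest to the left.

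Glycolysis rose at most of its steps. Of 22 tested genes of glycolysis and lactate handling, 15 were higher and 1 was lower, with a median log2 fold change of 0.75. Slc2a1, counted with the HIF targets, and Hk1, which bring in and trap glucose, rose by 1.44 ± 0.12 and 0.62 ± 0.11. Gpi1, glucose-6-phosphate isomerase, had 61.1, 62.9 and 76.0 FPKM with PBS and 151, 185 and 217 FPKM with roxadustat (1.49 ± 0.09, adjusted p = 1.36e-07). Pfkl had 19, 19.7 and 25.6 FPKM and then 73.4, 82.2 and 87.8 FPKM (1.94 ± 0.08, adjusted p = 9.45e-09). The groups stood apart at each of these steps.

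The later steps rose as well. Aldoa, an aldolase, rose by 1.64 ± 0.13, Tpi1, triose phosphate isomerase, by 1.20 ± 0.09, Gapdh by 0.81 ± 0.10, Pgk1 by 1.30 ± 0.11 and Pgam1 by 1.40 ± 0.08. Eno1, enolase, rose by 1.14 ± 0.10, Pkm2, pyruvate kinase M, by 1.19 ± 0.22, and Ldha, the lactate dehydrogenase subunit of the reaction toward lactate, by 0.68 ± 0.09. Pkm2 was uneven, with 85.7 FPKM in roxadustat library 5, inside the PBS range of 49.1 to 90.5 FPKM, and 144 to 227 FPKM in the other 5. Slc16a3, the lactate exporter MCT4, had 1.63, 2.26 and 4.45 FPKM with PBS and 10.7, 16.5 and 27.4 FPKM with roxadustat (2.57 ± 0.25, adjusted p = 1.56e-05). Slc16a1, the transporter MCT1, rose by 0.47 ± 0.08 (adjusted p = 0.00198).

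Isozymes of one step had unequal values. The aldolase genes Aldoa and Aldoc (0.54 ± 0.10) both rose. Pfkl and the platelet isozyme gene Pfkp (1.18 ± 0.21) rose, and the muscle isozyme gene Pfkm had 0.05 ± 0.08 (adjusted p = 0.757). Ldhb fell from 4.64, 5.98 and 6.45 FPKM to 2.02, 3.74 and 5.12 FPKM (-0.65 ± 0.17, adjusted p = 0.0288), a call lost with any of 5 libraries left out (adjusted p up to 0.0648). The differences between isozymes were not tested.

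**Figure D4:**
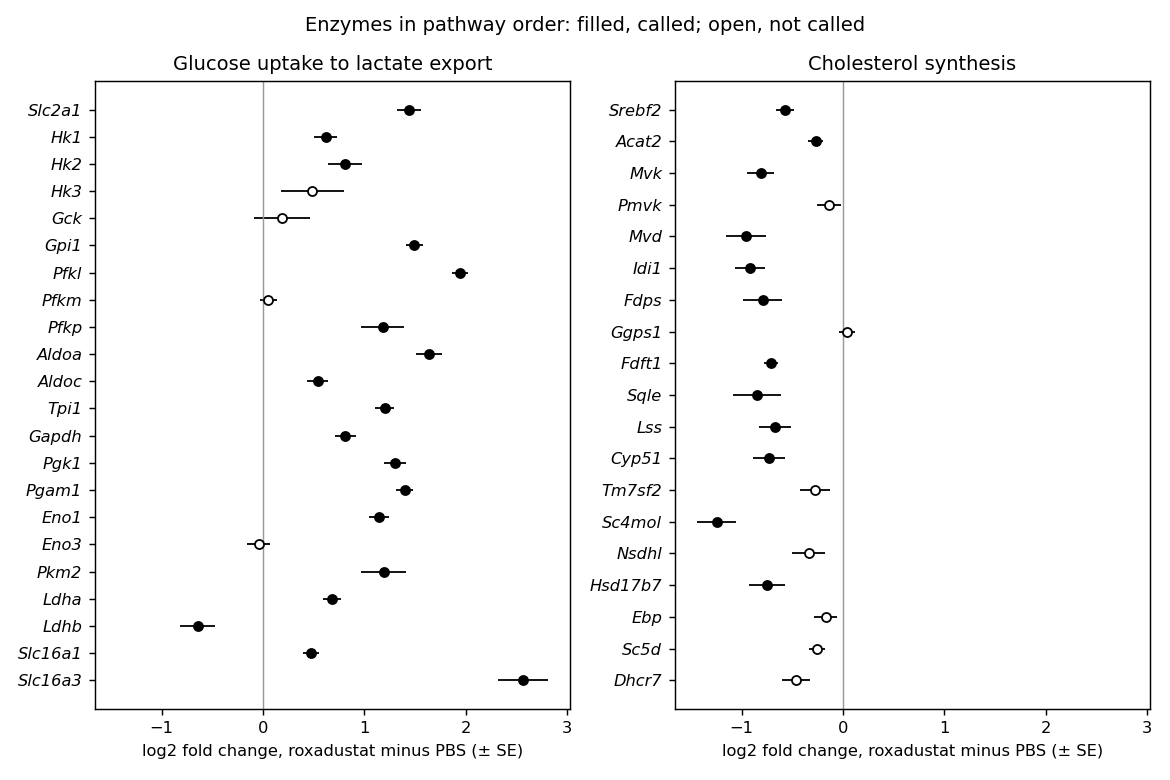
Log2 fold change of roxadustat minus PBS, with its SE, for genes from glucose uptake to lactate export (left) and of cholesterol synthesis (right), in pathway order, with some members not drawn. Filled circles were called and open circles were not. The filled circles of the left panel lie to the right of 0 except Ldhb, and the filled circles of the right panel lie between -1.25 and -0.27.

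In pyruvate oxidation, 9.1% of the tested genes were called, against 9.71% of all genes tested. That list leaves out Pdk1 and Pdk3, 2 kinase genes called higher. Of 31 genes of oxidative phosphorylation, limma called 0 (1 at an unadjusted p under 0.05, against 3024 of all 12649 genes tested). The list's median was 0.04, with values between -0.11 and 0.19. Of 11 genes of pyruvate oxidation, 1 was called, the phosphatase Pdp2 (0.37 ± 0.07, adjusted p = 0.00428). Of the kinases that inhibit pyruvate dehydrogenase, Pdk1 and Pdk3 were called higher and are counted with the HIF targets, Pdk3 by 0.44 ± 0.12 (adjusted p = 0.0324, the call lost with any of 7 libraries left out, adjusted p up to 0.0768). Pdk2 (0.56 ± 0.18, adjusted p = 0.0623) and Pdk4 (0.11 ± 0.12, adjusted p = 0.61) were not called. Ndufa4l2, a HIF-induced paralog of a respiratory subunit, had 1.45, 1.69 and 2.01 FPKM with PBS and 3.28, 3.84 and 5.31 FPKM with roxadustat (1.02 ± 0.10, adjusted p = 2.02e-05).

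Glycogen and glucose output genes split. Of 22 tested, 6 were higher and 2 lower. Pck1, the gate of gluconeogenesis, went from 301, 368 and 479.9 FPKM to 544, 742 and 926 FPKM (0.94 ± 0.16, adjusted p = 0.00183). Gbe1, the glycogen branching enzyme, went from 12, 12.6 and 16.5 FPKM to 24.2, 30.0 and 34.5 FPKM (1.09 ± 0.11, adjusted p = 2.46e-05), and Pgm2, a phosphoglucomutase, rose by 0.59 ± 0.07. Gys1, the glycogen synthase of muscle, counted with the HIF targets, rose by 1.25 ± 0.10, and Gys2, that of liver, had -0.44 ± 0.14 (adjusted p = 0.0623). Irs1, an insulin receptor substrate, fell from 8.74, 10.7 and 11.6 FPKM to 5.31, 6.43 and 7.11 FPKM (-0.71 ± 0.08, adjusted p = 9.17e-05).

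Erythropoietin and iron genes rose in part. Of 22 tested, 7 were higher and 0 lower. Epo had 0.0584, 0.189 and 0.486 FPKM with PBS and 2.12, 5.22 and 5.65 FPKM with roxadustat (2.84 ± 0.20, adjusted p = 7.82e-07). Roxadustat library 2 had the 2.12, and the other 5 lay between 5.07 and 5.65 FPKM. Fam132b, the gene of erythroferrone, a suppressor of hepcidin, had 0.128, 0.237 and 0.304 FPKM and then 0.695, 1.42 and 2.28 FPKM (1.35 ± 0.17, adjusted p = 0.000225). Slc39a14, a zinc and iron importer, rose by 0.75 ± 0.09 and Slc40a1, the iron exporter ferroportin, by 0.32 ± 0.08 (adjusted p = 0.0183).

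Hamp, the hepcidin gene, rose unevenly. Hamp had 0.590, 1.07 and 3.13 FPKM with PBS and 2.92, 15.7 and 46.5 FPKM with roxadustat (2.90 ± 0.67, adjusted p = 0.015). Hamp was at 46.5, 27.5 and 41.0 FPKM in roxadustat libraries 2, 3 and 4 and at 3.53, 2.92 and 3.88 FPKM in libraries 1, 5 and 6, so the groups overlapped. With male libraries alone the adjusted p of Hamp was 0.159.

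Vessel-directed signals rose in part. Of 27 angiogenic factors and receptors, 6 were higher and 1 lower, and 15 of the 27 log2 fold changes were below 0. Vegfa had 15.1, 16.3 and 19.1 FPKM with PBS and 21.6, 28.5 and 33.0 FPKM with roxadustat (0.73 ± 0.09, adjusted p = 0.000263). Its receptor gene Flt1 rose from a median of 4.82 to 7.94 FPKM (0.65 ± 0.06, adjusted p = 1.02e-05), and Apln, the apelin gene, from 0.473 to 1.02 FPKM (0.74 ± 0.11, adjusted p = 0.00073). Of 14 genes of liver endothelium, limma called 0 (5 at an unadjusted p under 0.05, against 3024 of all 12649 genes tested). The summed level of the 14 was 260 to 299 FPKM with PBS and 240.0 to 292 FPKM with roxadustat.

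Cholesterol synthesis fell. Of 20 tested genes, 13 were lower and 0 higher, 19 of 20 log2 fold changes were below 0, and the median was -0.69. Hmgcs1 was listed at 0 in all 12 libraries and was not tested. Fdft1, squalene synthase, had 33.1, 37.8 and 40.7 FPKM with PBS and 19.9, 22.5 and 23.9 FPKM with roxadustat (-0.71 ± 0.07, adjusted p = 1.26e-05). Sc4mol had 37.5, 50.3 and 68.6 FPKM and then 13.8, 22.1 and 30.7 FPKM (-1.25 ± 0.20, adjusted p = 0.00121). In both genes, which act midway and late in the pathway, every roxadustat library was below every PBS library.

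Among the other enzymes, Mvk fell by 0.81 ± 0.14, Mvd by 0.96 ± 0.20, Idi1 by 0.92 ± 0.15, Fdps by 0.79 ± 0.19, Lss by 0.67 ± 0.16 and Cyp51 by 0.73 ± 0.16 on the log2 scale. The mean of the cholesterol list was -0.37 in PBS library 5, -0.12 to 0.31 in the other 5, and -0.86 to -0.36 with roxadustat, so the groups overlapped. The 7 genes not called had values between -0.46 and 0.04. Without roxadustat library 5, 12 were lower (6.24% of all genes in that fit), and with sex as a term, 11.

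The regulators of sterol synthesis and uptake split. Of 18 tested, 6 were lower and 2 higher. Srebf2, the transcription factor of cholesterol synthesis, had 10.2, 14.5 and 16.1 FPKM with PBS and 8.73, 9.13 and 9.43 FPKM with roxadustat (-0.57 ± 0.09, adjusted p = 0.000993). Srebf1, that of fatty acid synthesis, went from a median of 62.5 to 39.8 FPKM (-0.66 ± 0.13, adjusted p = 0.00584). Insig1, which retains both factors in the endoplasmic reticulum, had 44.1, 52.9 and 66.2 FPKM and then 70.3, 77.3 and 95.6 FPKM (0.58 ± 0.10, adjusted p = 0.00247).

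Fatty acid and triglyceride synthesis fell in part. Of 24 tested genes, 9 were lower, 0 higher and 15 not called, with a median of -0.26. Mid1ip1, an activator of acetyl-CoA carboxylase, had 18.9, 19.8 and 25.0 FPKM with PBS and 8.25, 10.2 and 14.5 FPKM with roxadustat (-0.97 ± 0.12, adjusted p = 0.000156). Fasn, fatty acid synthase, had 10.4, 14.1 and 16.6 FPKM and then 6.29, 7.12 and 7.95 FPKM (-0.88 ± 0.12, adjusted p = 0.000291). Dgat2, the last acyltransferase of triglyceride synthesis, fell by 0.49 ± 0.09 and Mlxipl, the glucose-sensing factor ChREBP, by 0.61 ± 0.13. Among 36 tested genes for oxidizing fatty acids and making ketone bodies, 2 were lower, Acox2 (-0.57 ± 0.08, adjusted p = 0.000615) and Acot4 (-0.57 ± 0.16, adjusted p = 0.0442), the latter lost with any of 7 libraries left out (adjusted p up to 0.0956).

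The largest called fall was in Clec2h, a lectin-like gene, with 5.82, 8.90 and 9.99 FPKM with PBS and 0.390, 0.962 and 4.32 FPKM with roxadustat (-2.44 ± 0.32, adjusted p = 0.000297). The 4.32 FPKM of Clec2h was roxadustat library 5, and the other 5 were at most 1.18 FPKM. Lars2, the mitochondrial leucyl-tRNA synthetase gene, had the largest fall in FPKM among the called genes ranked for naming. Its level went from 1347, 1917 and 2063 FPKM to 429.9, 548 and 698 FPKM (-1.72 ± 0.14, adjusted p = 3.06e-06). With DMOG, Lars2 was uneven, at 836 ± 652 FPKM (mean ± SD) in 5 libraries and 281 FPKM in library 5, below every roxadustat library. Gpr110, an adhesion receptor, had 6.67, 8.45 and 9.51 FPKM and then 2.2, 3.03 and 3.65 FPKM (-1.38 ± 0.11, adjusted p = 2.48e-06). The roxadustat and PBS groups did not overlap for Clec2h, Lars2 or Gpr110.

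Chka, choline kinase, fell by 1.17 ± 0.13, Slc34a2, a phosphate transporter, by 1.14 ± 0.14, and Sgk2, a protein kinase, by 1.09 ± 0.15 on the log2 scale. Phlda2, an imprinted growth suppressor, fell by 1.08 ± 0.19, Krt20, a keratin, by 1.02 ± 0.10, and Fmo2, a flavin monooxygenase, by 1.02 ± 0.21. Bex2, an adaptor of growth signalling, fell by 1.10 ± 0.25 (adjusted p = 0.0129), with overlapping groups. Krt23, a keratin of bile duct cells, had 4.22, 6.98 and 13.1 FPKM and then 0.734, 2.89 and 4.70 FPKM (-1.46 ± 0.39, adjusted p = 0.0295). It was the 1 called gene of 7 bile duct markers, and the call of Krt23 was lost with any of 5 libraries left out (adjusted p up to 0.0705).

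In bile acid and drug metabolism few genes were called, and the shares called were not far from that of all genes tested. Over all genes tested, 9.71% were called, 5.33% lower and 4.38% higher. Whether these 2 lists differed from all genes was not tested. Cyp7a1, the rate-limiting enzyme of bile acid synthesis, had 7.64, 17.2 and 34.8 FPKM with PBS and 4.06, 7.32 and 9.39 FPKM with roxadustat (-1.25 ± 0.31, adjusted p = 0.0208), and 2 of 20 genes of its list were lower. Nr0b2, its repressor SHP, had 0.14 ± 0.14 (adjusted p = 0.584). Of 32 genes of drug and steroid metabolism, 3 were lower and 1, Cyp17a1, was higher. Without roxadustat library 5, 7 of the 32 were lower and 2 higher, against 6.24% lower and 6.9% higher over all genes in that fit. Cyp2e1, an ethanol-oxidizing enzyme, had 1028, 1229 and 1658 FPKM and then 471, 834 and 996 FPKM (-0.73 ± 0.18, adjusted p = 0.0238), a call lost with any of 4 libraries left out (adjusted p up to 0.0565). Hsd3b3, a hydroxysteroid dehydrogenase chosen after its values were seen, fell from a median of 91.2 to 54.6 FPKM (-0.77 ± 0.11), and it has near-identical paralogs such as Hsd3b1 (-0.97 ± 0.15), between which reads may be split. Gclc, the catalytic subunit of glutathione synthesis, fell by 0.82 ± 0.11 (adjusted p = 0.000435).

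Of 38 genes of the urea cycle and amino acid breakdown, 1 was lower. That gene, Hal, histidine ammonia lyase, had 19.1, 25.4 and 30.7 FPKM with PBS and 5.77, 10.9 and 28.7 FPKM with roxadustat (-1.12 ± 0.29, adjusted p = 0.0267). Roxadustat library 5 had 28.7 FPKM of Hal, and the other 5 were at most 14.0 FPKM. The call of Hal was lost with any of 5 other libraries left out (adjusted p up to 0.0631). Of 28 genes of serine and one-carbon metabolism, 3 were higher, 2 lower and 23 not called, with a median of -0.06. The mitochondrial genes Mthfd1l (0.71 ± 0.09) and Shmt2 (0.54 ± 0.08) rose, and the cytosolic genes Mthfd1 (-0.40 ± 0.08) and Shmt1 (-0.34 ± 0.09) fell, and the call of Shmt1 was lost with any of 8 libraries left out (adjusted p up to 0.0752). Chdh, the mitochondrial choline dehydrogenase, rose by 0.75 ± 0.10.

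Acute phase genes rose unevenly between libraries. Of 30 tested, 11 were higher and 1 lower, with a median of 0.49. A2m, alpha-2-macroglobulin, had 3.21, 4.40 and 6.95 FPKM with PBS and 15.9, 23.6 and 61.4 FPKM with roxadustat (2.32 ± 0.27, adjusted p = 0.000103). Orm1, orosomucoid, had 1.76, 3.42 and 9.0 FPKM and then 4.64, 24.7 and 60.3 FPKM (2.35 ± 0.54, adjusted p = 0.015). Saa1, serum amyloid A, had 4.79, 11.6 and 14.2 FPKM and then 11.6, 19.8 and 255 FPKM, and was not called (1.49 ± 0.61, adjusted p = 0.15). The highest value of all 3 was that of roxadustat library 2, which also had the lowest Epo, O3far1 and Ankrd37 of its group.

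Orm2, a second orosomucoid gene that is close in sequence to Orm1, had 2.45 ± 0.60 (adjusted p = 0.02), and reads of the pair may be split. Genes of cytokine signalling were among those that rose. Il1r1, the interleukin-1 receptor, rose by 0.65 ± 0.09, Stat3 by 0.35 ± 0.06, Socs3, a feedback inhibitor of cytokine signalling, by 0.67 ± 0.13, and the transcription factor genes Cebpb and Cebpd by 0.84 ± 0.16 and 0.71 ± 0.13. Macrophage genes were summed at 901 to 1702 FPKM with PBS and 757 to 1729 FPKM with roxadustat, and limma called 0 of 15 (0 at an unadjusted p under 0.05). All 15 passed the filter, so none was at 0, and their part in the acute phase result was not tested. Roxadustat library 5 had the lowest sum for macrophage genes and for lymphocyte genes. Without that library the median log2 fold change was 0.40 instead of 0.27 for the 15 macrophage genes. For 16 lymphocyte genes it was 0.44 instead of 0.30. These medians are descriptions without a test, since that library stands apart in these same genes. With all 12 libraries, limma called 0 of the 16 lymphocyte genes (2 at an unadjusted p under 0.05). Limma also called 0 of 25 interferon response genes (1 at an unadjusted p under 0.05), with list means from -0.91 to 0.96 with PBS and -0.58 to 1.17 with roxadustat. Over all 12649 genes tested, 3024 had an unadjusted limma p under 0.05.

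**Figure D5:**
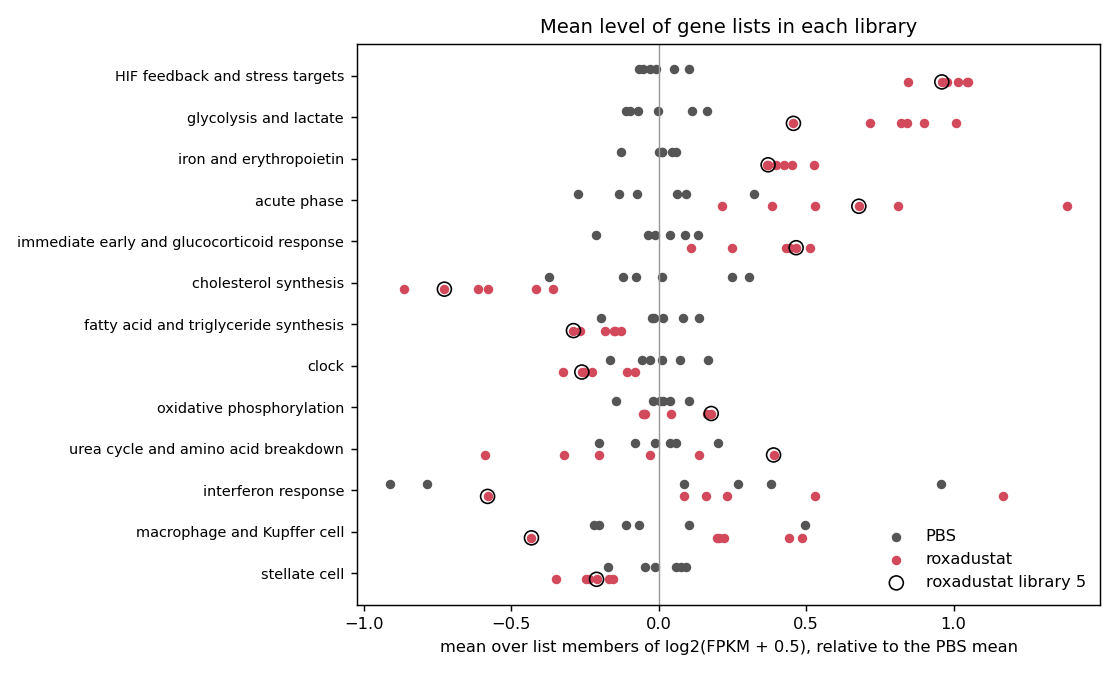
Mean level of 13 gene lists in each of the 12 libraries, as the mean over members of log2(FPKM + 0.5) relative to the PBS mean. Grey points are PBS, red points are roxadustat, and rings mark roxadustat library 5. The groups stand apart for HIF targets, glycolysis and iron, and they overlap for interferon and macrophage genes, in which library 5 is the lowest roxadustat library.

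On a mixed list of immediate early and glucocorticoid response genes, 9 of 24 were higher, Cdkn1a among them, and 1 was lower, the glucocorticoid-induced Fkbp5. Ier3, an early response gene, had 2.16, 2.60 and 3.66 FPKM with PBS and 4.18, 7.12 and 9.13 FPKM with roxadustat (1.16 ± 0.17, adjusted p = 0.000694). Dusp1, a phosphatase of MAP kinases, rose by 1.06 ± 0.18 and Junb, an AP-1 subunit, by 0.86 ± 0.18. Fkbp5, a chaperone of steroid receptors, fell from a median of 28.1 to 20.4 FPKM (-0.57 ± 0.11, adjusted p = 0.00417). Of 14 clock genes, 4 were lower and 0 higher. They were Per3 (-0.91 ± 0.20), Hlf (-0.63 ± 0.11), Tef (-0.50 ± 0.12) and Dbp (-0.71 ± 0.19), a period gene and 3 clock-driven transcription factors, and Dbp lost its call with any of 7 libraries left out (adjusted p up to 0.064).

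Among liver hormones and their binding proteins, 3 of 21 were higher and 3 lower. Igfbp1, described above and not on that list, rose by 1.69 ± 0.24. Igfals, the acid-labile subunit that holds insulin-like growth factors in blood, had 57.5, 71.8 and 78.7 FPKM with PBS and 21.1, 36.1 and 50.4 FPKM with roxadustat (-0.95 ± 0.17, adjusted p = 0.00297). Igfbp3, its binding partner, had 24.7, 33.1 and 49.8 FPKM and then 8.66, 17.7 and 24.1 FPKM (-0.97 ± 0.24, adjusted p = 0.0211, and 0.0518 without PBS library 6). Stc1, stanniocalcin, rose from a median of 0.317 to 1.05 FPKM (1.02 ± 0.11, adjusted p = 5.15e-05).

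Genes of hepatic stellate cells, the vitamin A storing cells of liver, were lower in part, with 5 of 14 called lower and 0 higher. Over all genes tested, 5.33% were lower and 4.38% higher. Of the 14 log2 fold changes, 12 were below 0 and 2 above it, up to 0.48. The 2 above 0 had an unadjusted limma p under 0.05 and were not called. Ngfr, a neurotrophin receptor, had 5.78, 7.24 and 8.30 FPKM with PBS and 3.88, 4.11 and 4.43 FPKM with roxadustat (-0.71 ± 0.08, adjusted p = 6.11e-05). Pdgfrb, a growth factor receptor of these cells, fell by 0.33 ± 0.06 (adjusted p = 0.00326). The summed level was 307 to 402 FPKM with PBS and 277 to 332 FPKM with roxadustat, so the groups overlapped. In bulk RNA, fewer cells of a type and less RNA per cell cannot be told apart.

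Roxadustat and DMOG were compared directly over all 18 libraries of the table, and limma called 379 of 12657 genes (2.99%). DMOG library 5 lay inside the PBS range for Egln1 (9.40 FPKM), Bnip3 (59.2 FPKM) and Pfkl (21.4 FPKM), though not for Lars2 (281 FPKM). The SE of the Epo difference was 0.70 with that library and 0.19 without it. A gene not called in this comparison is thus not shown to be alike with both drugs. Differences are given as roxadustat minus DMOG. Epo was 4.77 ± 1.32 FPKM (mean ± SD, n = 6) with roxadustat. With DMOG it was 21.9 ± 3.04 FPKM in 5 libraries and listed at 0 in library 5. The difference of Epo was not called (-1.21 ± 0.70, SE, limma adjusted p = 0.384). Egln3 (-1.13 ± 0.36, adjusted p = 0.0923), Ankrd37 (-0.89 ± 0.61, adjusted p = 0.492) and Vegfa (-0.36 ± 0.19, adjusted p = 0.335) were not called either. Without DMOG library 5 the log2 differences were -2.13 for Epo, -1.58 for Egln3, -1.69 for Ankrd37 and -0.59 for Vegfa. They are given as descriptions without a test, since that library stands apart in these same genes. Doses and times are not given, so a difference in exposure and one in action cannot be told apart.

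Slc25a47, a liver mitochondrial carrier chosen after its values were seen, was higher with roxadustat than with DMOG. Slc25a47 rose with roxadustat from 96.5, 145 and 203 FPKM with PBS to 248, 345 and 431 FPKM (1.25 ± 0.18, adjusted p = 0.000615). With DMOG, Slc25a47 was 152 ± 21.7 FPKM in 5 libraries and 163 FPKM in library 5, and the direct difference was 1.13 ± 0.17 (limma adjusted p = 0.00203). Differences that were not called were 1.21 ± 0.35 for Slc16a3 (adjusted p = 0.0631), 0.11 ± 0.44 for Fgf23 (0.929), 0.17 ± 0.27 for Pfkl (0.811) and -0.21 ± 0.26 for Sc4mol (0.746). Without DMOG library 5 these log2 differences were 0.86 for Slc16a3, -0.40 for Fgf23, -0.18 for Pfkl and 0.04 for Sc4mol. The signs for Fgf23, Pfkl and Sc4mol thus depended on that library, and the values without it are descriptions without a test.

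The roxadustat libraries labelled liver, which hold a retina transcriptome, gave 192 of 13809 genes called (1.39%). Of the 1228 genes called here, 1021 were tested there and 69 were called, 66 in the same direction, which is 5.62% of the calls here and 35.9% of those there. Slc16a3 rose there by 2.76 ± 0.25 (limma adjusted p = 4.33e-05), Pdk1 by 1.48 ± 0.16 and Pfkl by 1.44 ± 0.09. Sc4mol had -0.11 ± 0.06 (adjusted p = 0.386) there. Epo, O3far1 and Fgf23 were below the filter in that table, at means of 0.129, 0.196 and 0.0842 FPKM with roxadustat. The difference between the tables was not tested.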

How the data were processed

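RNA of 12 libraries, 6 per group, was analysed from the authors' deposited table of FPKM values, 1 column per library. Per the submitters' processing notes, bcl2fastq 1.8.3, TopHat2, Cuffdiff 2.2.1 and build mm9 were used, and the annotation and the scaling between libraries are not given in the sources used here. The table holds no read totals, so depth is unknown and no counting interval is given.

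Genes whose average reached 0.5 FPKM across the 12 libraries were fitted on log2(FPKM + 0.5) with limma 3.58.1 in R 4.3.3 (empirical Bayes with a mean trend, 10 residual degrees of freedom before moderation, two-sided, Benjamini-Hochberg threshold 0.05), a procedure first tested on simulated data. The members and gene lists were chosen with earlier results of these data known. Genes were named by the 15 highest and 15 lowest log2 fold changes among called genes of at least 1 FPKM with all 6 roxadustat libraries on 1 side of the PBS mean, the 8 largest rises and falls in FPKM, up to 4 members per list by p, and 8 HIF genes. The rankings by log2 fold change and by FPKM passed over Mir, Snor, Rmrp, Rpph, Rn, Gm, LOC, clone and Rik names and spreadsheet dates. Other list members, the genes of the tissue checks, Hsd3b3 and Slc25a47 were chosen after their values were seen. Some genes that the rule names are not reported here.

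Replicate numbers did not pair the libraries. Alternatives changed the pseudocount, filter, scaling, variance model, libraries fitted, sex term and replicate block, or left out 1 library. Promoters came from RefSeq (GRCm38.p6), and no coordinate of the deposited mm9 data was used.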

Additional observations from a re-analysis of the deposited data

Results flagged for a closer look

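In 366 groups of 6 libraries (genes and list means), 21 held a library far from the other 5, 5.74% against the 1 in 20 that chance gives. Roxadustat library 2 was low for Epo (2.118 FPKM, others 5.069 to 5.652), O3far1 (14.24, others 28.09 to 32.15) and Ankrd37 (9.073, others 14.65 to 17.67). It was high for A2m (61.42 FPKM, others 15.92 to 26.26) and Saa1 (254.5, others 11.56 to 29.15). Roxadustat library 5 was high for Clec2h (4.322 FPKM) and Nr0b2 (39.4 FPKM), and it was low for the mean of macrophage genes (-0.4309 on the log2 scale relative to PBS) and of lymphocyte genes (-0.4919). Roxadustat library 4 was low for Slc34a2 (0.4786 FPKM) and high for Hsd3b1 (14.23 FPKM), and library 3 was low for the liver hormone list (-0.1928).

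Among PBS libraries, library 5 was low for gluconeogenesis and glycogen (-0.2327) and for iron and erythropoietin (-0.1275). Library 3 was low for Ero1l (11.14 FPKM) and the ER folding list (-0.1585) and high for Pfkm (5.118 FPKM). Library 1 was high for Pfkl (25.61 FPKM) and Cebpd (3.951 FPKM), library 2 was low for Apln (0.2291 FPKM), and library 6 was high for coagulation and complement (0.1647).

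For 3 genes, all 6 roxadustat libraries of the retina transcriptome lay on the opposite side of their PBS mean from the 6 liver libraries. The log2 fold changes in the retina transcriptome were 0.1529 for Egln2, -0.2962 for Insig1 and -0.3972 for Cebpb. None of the 3 was called there (limma adjusted p = 0.241, 0.220 and 0.190), and Egln2 was not called in liver either. The difference between the tables was not tested.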

How the results depend on the processing

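Of 130 named genes called, 116 stayed called in all 12 fits that left out 1 library, and none changed sign. Counts of calls ranged from 841 to 1664 over those fits, from 407 to 874 higher and from 406 to 790 lower. A filter of at least 5 FPKM tested fewer genes and gave 802 calls, 418 of them lower. Equal totals gave 1076 lower. Fitting all 18 libraries gave 530 calls, 274 higher and 256 lower, and 95 of the 130 remained. The 17 libraries without DMOG library 5 gave 1107 calls, 521 higher and 586 lower, and 119 of the 130 remained. The 8 libraries with male signal gave 276 calls, 193 higher and 83 lower, with 80 of the 130 still called. The cause of the lower count with male signal was not tested. The replicate block gave 1107 calls, and 120 of the 130 remained. The numbers correlated between -0.268 and 0.470, with 1 of 6 matching its own number best. Hif1an, not called at -0.01, ranged from -0.02854 to 0.01903 over the fits that left out 1 library, and it was 0.0008846 with median-ratio scaling, 0.01924 with a sex term, 0.02204 with male signal only, and positive (0.01138, 0.01903 and 0.01361) without PBS library 3, roxadustat library 3 and roxadustat library 5. Without read totals, the precision of values near 0 FPKM is unknown.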
